A study of Mus musculus with 12 samples.

Results

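The genes described here are 10 genes of the endocannabinoid system and of receptors and channels known to respond to cannabidiol (CBD), as measured in mouse kidney by RNA-Seq. They were chosen by symbol for their function, with earlier results of these data known, and matched to the Ensembl identifiers of the count files. They are the receptors Cnr1, Cnr2 and Gpr55, the channels Trpv1 and Trpv2, the synthesis enzymes Napepld, Dagla and Daglb, and the breakdown enzymes Faah and Mgll. All 10 were among the 57180 genes of the files, and 7 of them were among the 17163 genes that passed the filter on low counts and were tested.

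Poly(A) RNA was sequenced from the kidneys of 12 male C57BL/6J mice, with 1 library per mouse and 4 mice in each of 3 groups. The mice were 60 days old at the start and were injected intraperitoneally once daily for 28 days. Control mice received the vehicle, saline with 2% Tween 80, the 10CBD group received 10 mg of CBD per kg of body weight in that vehicle, and the 20CBD group 20 mg. The comparison of each dose with Control asked how long-term CBD altered kidney gene expression, and the same 4 Control mice served in both comparisons. The total count on genes ranged from 15417867 to 23532088 per library.

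Libraries differed in the share of counts that fell on genes of the mitochondrial genome, and 4 of the 12 stood apart with a share under 10%. In Control the share was 12.8%, 5.77%, 17.55% and 13.5% in replicates 1 to 4. In 10CBD it was 3.53%, 15.3%, 4.55% and 15.3%, and in 20CBD it was 20.6%, 23.4%, 5.54% and 14.0%. The low libraries were therefore Control replicate 2, 10CBD replicates 1 and 3, and 20CBD replicate 3. The tissue label was checked against 8 kidney epithelial markers, all 8 of which were expressed, with a summed level of 23445 to 30839 CPM per library (counts scaled to a library of 1000000) and Kap, an androgen-regulated gene of the proximal tubule, as the most abundant.

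Endocannabinoids are lipid messengers that cells make on demand from membrane phospholipids. Anandamide can be released from its precursor by NAPE-PLD and is hydrolysed by FAAH, while 2-arachidonoylglycerol is formed by the diacylglycerol lipases and broken down mainly by monoacylglycerol lipase. Both act on the cannabinoid receptors CB1 and CB2, and in the kidney this signalling has been linked to renal blood flow, tubular transport and inflammation.

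The breakdown enzymes were the most expressed of the 10 genes, and the receptors and Trpv1 the least. Levels between genes were compared as CPM per kb of merged exons, with the mean and the range over the 12 libraries. Mgll stood first at 14.0 (10.8 to 18.1; 20.2 per kb of the longest transcript), a level above that of 87.3% of the tested genes. Faah followed at 5.47 (4.63 to 7.04; 10.2 per kb of the longest transcript), above 71.4% of the tested genes. Each was higher than the next gene in the order in every library, since neither the ranges of Mgll and Faah nor those of Faah and Napepld overlapped. Napepld at 0.959, Trpv2 at 0.667 and Daglb at 0.533 CPM per kb came next, and the ranges of neighbours in this run overlapped. In Control alone, Napepld (1.01 or more) lay above Trpv2 (0.717 or less) without overlap.

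Daglb lay above its paralog Dagla without overlap, with a lowest library of 0.454 CPM per kb against a highest of 0.421 for Dagla, whose mean was 0.294. Cnr2 averaged 0.243 CPM per kb and overlapped Dagla. Gpr55 at 0.0567, Cnr1 at 0.0109 and Trpv1 at 0.00775 CPM per kb closed the order, and the ranges from Cnr2 down to Trpv1 overlapped from neighbour to neighbour over all libraries. In Control and in 10CBD, each Cnr2 value was above each Gpr55 value. In Control alone, each Gpr55 value (0.0242 or more) was also above each Cnr1 value (0.0223 or less). These Control values rest on 2 to 4 counts per library for Gpr55 and 1 to 5 for Cnr1. Divided by the longest transcript instead of the merged exons, Daglb moved from the fifth to the third place at 1.43 CPM per kb, and the order of the other 9 genes among themselves was the same.

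**Figure D1:**
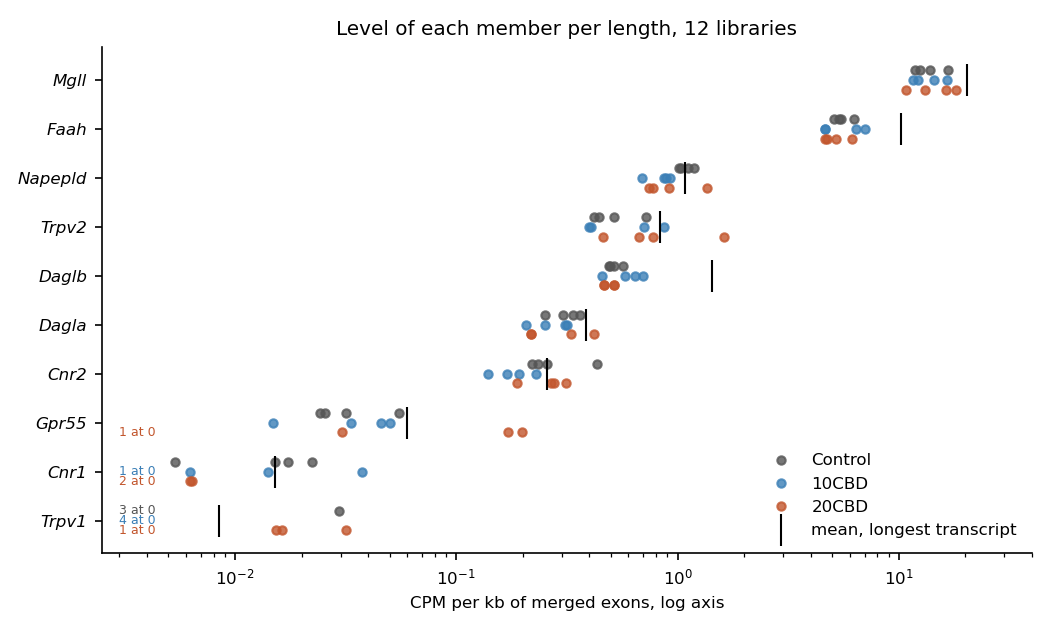
Level of each gene in CPM per kb of merged exons (horizontal log axis), with 1 point per library coloured by group, libraries at 0 written at the left, and a black bar for the mean per kb of the longest transcript. Mgll (10.8 to 18.1) and Faah (4.63 to 7.04) lie apart from the rest, while Gpr55, Cnr1 and Trpv1 have libraries at 0.

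The promoters of the genes at the ends of this order are shown because they put the most and least expressed members side by side. RefSeq promoters on GRCm38.p6, each running from 250 bases before to 50 bases after a start, were matched for 9 of the 10 genes. The dinucleotide CG, which reads the same on both strands, was counted in each and is in capitals below, with each sequence written 5′ to 3′ on the strand of its gene. Mgll (chr6:88724162-88724461, + strand) held 32 CG, a number that 9.27% of all RefSeq promoters reached, and Faah (chr4:116017875-116018174, - strand) held 16, reached by 33.5%. Cnr1 (chr4:33924014-33924313, + strand) held 40, reached by 3.79%, and Trpv1 (chr11:73233899-73234198, + strand) held 4, reached by 68.1%.
Mgll: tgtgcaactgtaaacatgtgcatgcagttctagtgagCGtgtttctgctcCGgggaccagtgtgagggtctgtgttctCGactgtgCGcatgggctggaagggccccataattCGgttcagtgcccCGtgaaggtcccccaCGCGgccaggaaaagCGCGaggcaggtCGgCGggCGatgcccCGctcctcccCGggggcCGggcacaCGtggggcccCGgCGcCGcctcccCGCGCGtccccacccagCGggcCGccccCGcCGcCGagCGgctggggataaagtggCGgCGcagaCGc
Faah: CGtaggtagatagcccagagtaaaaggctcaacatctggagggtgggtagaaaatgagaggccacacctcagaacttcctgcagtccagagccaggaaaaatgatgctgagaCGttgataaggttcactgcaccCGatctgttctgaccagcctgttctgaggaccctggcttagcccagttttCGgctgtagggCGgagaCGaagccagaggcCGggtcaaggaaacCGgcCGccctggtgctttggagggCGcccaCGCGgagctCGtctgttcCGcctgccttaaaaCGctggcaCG
Cnr1: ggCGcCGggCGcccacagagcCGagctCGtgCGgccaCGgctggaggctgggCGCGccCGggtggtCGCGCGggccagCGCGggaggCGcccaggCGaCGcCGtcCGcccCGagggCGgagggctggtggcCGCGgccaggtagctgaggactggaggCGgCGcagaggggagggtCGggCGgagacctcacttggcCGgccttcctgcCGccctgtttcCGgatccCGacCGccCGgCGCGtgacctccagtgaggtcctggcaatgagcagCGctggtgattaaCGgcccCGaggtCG
Trpv1: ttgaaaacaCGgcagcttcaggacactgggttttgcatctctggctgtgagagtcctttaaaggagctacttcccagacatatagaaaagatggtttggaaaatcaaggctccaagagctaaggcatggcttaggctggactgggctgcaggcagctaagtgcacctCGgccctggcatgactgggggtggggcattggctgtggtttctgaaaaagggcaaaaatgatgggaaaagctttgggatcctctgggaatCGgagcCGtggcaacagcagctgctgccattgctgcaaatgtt
At the start used for each gene, the Cnr1 promoter carried the most CG of the 9, while its transcript had few counts. This ranking depends on the start, since Mgll held 42 CG at its other start. Napepld (28) and Daglb (11) were with the other enzymes at 11 to 32 CG, whereas Cnr2 (3), Gpr55 (4) and Trpv2 (2) lay with Trpv1. For comparison, the median was 20 over 11491 tested genes with a promoter and 4 over 8126 genes below the filter. RefSeq lists 3 starts for Cnr1, with 5 to 40 CG, 3 for Trpv2, with 2 to 7, and 2 for Mgll, with 32 to 42, so the count depends on the start for these genes.

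Of the 10 genes, 3 did not pass the filter on low counts, namely Cnr1, Gpr55 and Trpv1. Trpv1 was undetected in 8 of the 12 libraries, Cnr1 in 3 and Gpr55 in 1, and none of the 10 was at 0 in all 12 libraries. A count of 0 allows up to 3 counts, which corresponds to 0.126 to 0.198 CPM depending on the library. These limits and the counting intervals given below cover counting error only, since reads copied from the same molecule by PCR are not independent. The other 7 genes had at least 12 counts in every library.

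At 10 mg/kg, Cnr2 and Napepld had lower means than Control, and the other 5 tested genes had smaller log2 fold changes. None of these differences passed edgeR's quasi-likelihood test at a Benjamini-Hochberg adjusted p under 0.1, with 0 of the 7 tested genes called against 0.0291% of all genes (5 of 17163, 2 higher and 3 lower). At an unadjusted p under 0.05, 0 of the 7 stood out, against 973 of all genes, and DESeq2 also called 0 of the 7 and 40 of all genes. The difference was positive for 4 of the 7 and negative for 3, with a median log2 fold change of 0.00 beside 0.01 over all tested genes. Napepld was the only one of the 7 whose Control and 10CBD libraries did not overlap, as was the case for 3.19% of all tested genes.

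At 20 mg/kg and over all libraries, Trpv2 had the largest difference from Control among the 7 tested genes, with a higher mean. With only the libraries of at least 10% mitochondrial share, Cnr2 (log2 fold change -0.24) was farther from Control than Trpv2 (0.19). Over all libraries, Napepld was again lower than Control in mean and overlapped it in range. Again 0 of the 7 were called by edgeR, against 0.303% of all genes (52 of 17163, 29 higher and 23 lower). At an unadjusted p under 0.05 the count was 0 of the 7 and 1450 of all genes, and with DESeq2 it was 0 of the 7 and 182 of all genes. The difference was positive for 2 of the 7 and negative for 5, with a median log2 fold change of -0.08 beside 0.01 over all tested genes. For 0 of the 7 did Control and 20CBD libraries lie apart without overlap, against 5.3% of all tested genes.

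Between the doses, Trpv2 and Cnr2 had higher means in 20CBD than in 10CBD. For Trpv2 the size of this difference depended on 20CBD replicate 3 (7.44 CPM). The other 3 libraries of 20CBD (2.11 to 3.53 CPM) lay within the range of 10CBD (1.82 to 3.98 CPM). For Trpv2 the log2 fold change was 0.55 (95% interval -0.22 to 1.32), and for Cnr2 it was 0.52 (-0.16 to 1.20). Daglb, with the smallest adjusted p of the 7 (0.8095 by edgeR), was lower in 20CBD at -0.27 (-0.59 to 0.04). The difference was positive for 5 of the 7 and negative for 2, with a median log2 fold change of 0.13 beside -0.003 over all tested genes. edgeR called 0 of the 7 genes and 0% of all genes in this comparison, with 0 of the 7 and 1083 of all genes at an unadjusted p under 0.05, and DESeq2 called 0 of the 7 and 12 of all genes. When the 8 mice of both doses were set against Control, edgeR called 0 of the 7 against 0.14% of all genes (24 of 17163), with 0 of the 7 and 1209 of all genes at an unadjusted p under 0.05, and DESeq2 called 0 of the 7 and 136 of all genes. In that comparison Napepld had the smallest adjusted p of the 7, 0.755 by edgeR, at a log2 fold change of -0.28 (95% interval -0.63 to 0.07).

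**Figure D2:**
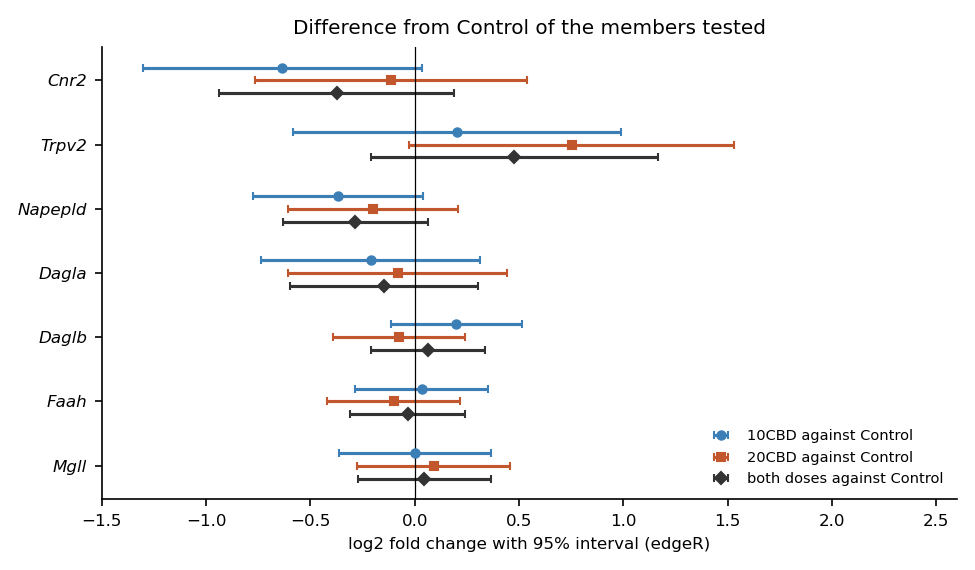
Log2 fold change from Control (horizontal axis) with its 95% interval from edgeR for the 7 tested genes, at 10 mg/kg (circles), at 20 mg/kg (squares) and for both doses together (diamonds). Each of the 21 intervals includes 0, with Cnr2 at 10 mg/kg (-0.63) and Trpv2 at 20 mg/kg (0.75) the farthest from it.

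Among the receptors, Cnr2 encodes CB2, the cannabinoid receptor found mainly on immune cells (ENSMUSG00000062585, chr4:135622696-135647518 of GRCm39). Its level was 0.966, 0.906, 1.06 and 1.79 CPM in Control replicates 1 to 4, 0.575, 0.792, 0.949 and 0.704 CPM in 10CBD, and 1.11, 0.778, 1.14 and 1.30 CPM in 20CBD. Control replicate 4 stood above the other Control libraries, 10CBD replicate 3 reached into the Control range, and the 20CBD libraries overlapped both other groups. Group means ± SD were 1.18 ± 0.414 CPM in Control, 0.755 ± 0.157 in 10CBD and 1.08 ± 0.219 in 20CBD (n = 4 each). The log2 fold change from Control was -0.63 ± 0.313 (SE) at 10 mg/kg, with a 95% interval of -1.30 to 0.03, and edgeR gave an adjusted p of 0.870. An exact permutation test, two-sided, gave p = 0.0571, where the 70 arrangements of 4 mice against 4 allow no p below 0.0286. Without Control replicate 4 the log2 fold change at 10 mg/kg was -0.37. For 20CBD it was -0.12 (95% interval -0.77 to 0.54), and it was 0.15 without Control replicate 4 and 0.01 without 20CBD replicate 2.

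Cnr2 is transcribed chiefly in leukocytes, and 11 leukocyte markers were read beside it. All 11 were detected, 10 were tested and 0 were called at either dose, with Csf1r, the receptor of a macrophage growth factor, as the most abundant at 39.5 CPM. Their summed level was 84.7, 84.2, 68.6 and 73.2 CPM in Control, 90.4, 77.2, 72.9 and 79.3 CPM in 10CBD, and 64.1, 77.1, 91.9 and 73.8 CPM in 20CBD. The 3 groups overlapped in this sum, which rests mostly on its most abundant genes. Single markers went both ways at 10 mg/kg, from a log2 fold change of -0.64 for the B-cell gene Cd79a and -0.59 for the macrophage gene Cd68 (adjusted p = 0.897 and 0.859 by edgeR) to 0.54 for the T-cell gene Cd3e (0.906). The part of these cells in the Cnr2 values was not tested. In whole kidney, fewer cells of a type and less RNA per cell cannot be told apart.

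Cnr1 encodes CB1, the main cannabinoid receptor of the brain, which is also described in kidney (ENSMUSG00000044288, chr4:33922982-33948836). It had 5, 3, 1 and 3 counts in Control replicates 1 to 4, 8, 2, 0 and 1 in 10CBD, and 1, 1, 0 and 0 in 20CBD. The highest count was that of 10CBD replicate 1. The groups overlapped, since counts of 0 or 1 were found in all 4 libraries of 20CBD but also in 10CBD replicates 3 and 4 and, with 1 count, in Control replicate 3. Summed over mice and scaled to library size, the ratio to Control was 0.989 (95% counting interval 0.395 to 2.45) at 10 mg/kg, where 8 of the 11 counts came from replicate 1 alone. For 20CBD it was 0.203 (0.0221 to 0.912), from 2 counts against 12. Over mice, the exact permutation test, two-sided, gave p = 0.686 at 10 mg/kg and p = 0.0857 at 20 mg/kg, so that the lower sum in 20CBD was not separated from the spread between mice.

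Gpr55 encodes a receptor for lysophosphatidylinositol at which CBD acts as an antagonist (ENSMUSG00000049608, chr1:85866039-85888729). It had 3, 2, 2 and 4 counts in Control, 3, 3, 4 and 1 in 10CBD, and 0, 2, 13 and 12 in 20CBD. Control and 10CBD overlapped, and the 20CBD mice were split, with replicates 3 and 4 above every other library and replicate 1 at 0. The ratio of summed counts to Control was 1.08 (95% counting interval 0.424 to 2.74) at 10 mg/kg and 2.99 (1.44 to 6.68) at 20 mg/kg. The exact permutation test over mice, two-sided, gave p = 0.371 at 20 mg/kg.

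Of the channels, Trpv2 encodes a cation channel of the vanilloid family that CBD opens (ENSMUSG00000018507, chr11:62465304-62491341). Its level was 2.35, 1.91, 3.27 and 2.01 CPM in Control replicates 1 to 4, 3.23, 1.85, 3.98 and 1.82 CPM in 10CBD, and 2.11, 3.53, 7.44 and 3.05 CPM in 20CBD. The value of 20CBD replicate 3 was the highest of the 12, and without it each 20CBD value lay within the range of 10CBD. Group means ± SD were 2.39 ± 0.621, 2.72 ± 1.07 and 4.03 ± 2.35 CPM (n = 4 each). The log2 fold change was 0.75 ± 0.366 (SE) at 20 mg/kg, with a 95% interval of -0.03 to 1.53 and an adjusted p of 0.609 by edgeR, and the exact permutation test, two-sided, gave p = 0.2. It was 0.28 without 20CBD replicate 3, the 20CBD library with a low mitochondrial share, 0.62 with a low share as a factor and 0.19 with only the libraries of at least 10%. At 10 mg/kg the log2 fold change was 0.20 (95% interval -0.58 to 0.99), and it was -0.10 with a low mitochondrial share as a factor.

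Trpv1 encodes the capsaicin receptor of sensory nerve endings, which CBD also activates (ENSMUSG00000005952, chr11:73125118-73152068). It was seen only in Control replicate 4 (2 counts) and in 20CBD replicates 1, 2 and 4 (2, 1 and 1 counts), and it was at 0 in all 4 libraries of 10CBD. These are 6 counts over 12 libraries, so no difference between groups was detectable at this depth, and the ratio of 20CBD to Control was 2.44 with a 95% counting interval of 0.349 to 26.9.

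**Figure D3:**
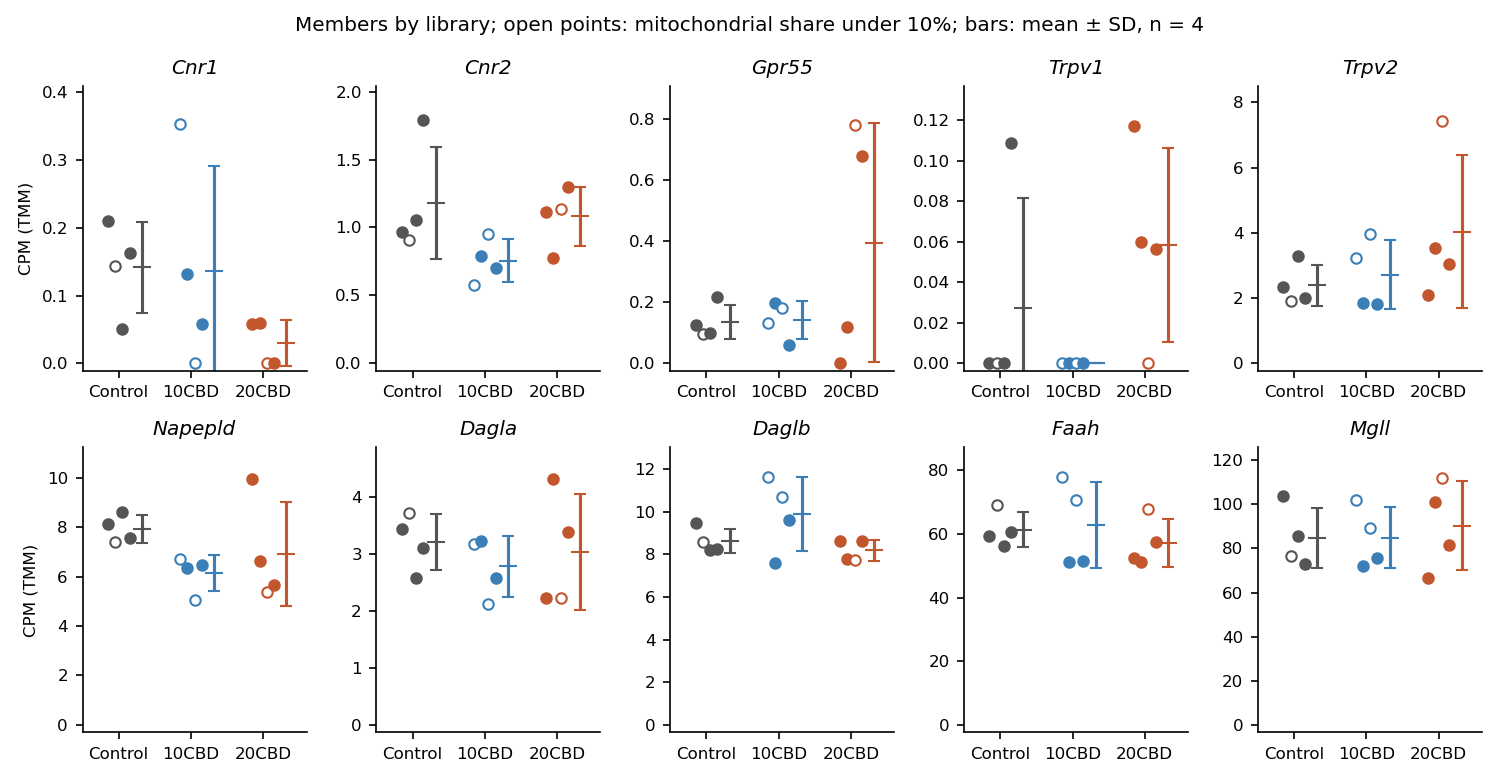
CPM of each gene in each library (vertical axes, each from 0), with 1 point per mouse in Control, 10CBD and 20CBD, open points for the 4 libraries with a mitochondrial share under 10%, and bars for mean ± SD (n = 4). Napepld is the tested gene whose 10CBD points (5.06 to 6.72) all lie below its Control points (7.39 to 8.61), and 20CBD replicate 3 stands out for Trpv2 at 7.44.

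Among the synthesis enzymes, Napepld encodes the phospholipase that releases anandamide from its membrane precursor (ENSMUSG00000044968, chr5:21867688-21923575). Its level was 8.15, 7.39, 8.61 and 7.56 CPM in Control replicates 1 to 4, 6.72, 6.33, 5.06 and 6.46 CPM in 10CBD, and 9.96, 6.65, 5.40 and 5.65 CPM in 20CBD. All 4 libraries of 10CBD lay below all 4 of Control, and in 20CBD replicates 2, 3 and 4 did so while replicate 1 was the highest of the 12. Group means ± SD were 7.93 ± 0.560, 6.14 ± 0.739 and 6.91 ± 2.10 CPM (n = 4 each). At 10 mg/kg the log2 fold change was -0.37 ± 0.191 (SE), with a 95% interval of -0.78 to 0.04 and an adjusted p of 0.871 by edgeR. The exact permutation test of this gene alone, two-sided, gave p = 0.0286, the smallest that the design allows, and this p is not adjusted for the number of genes read. At 20 mg/kg the log2 fold change was -0.20 (95% interval -0.61 to 0.21), and the exact permutation test, two-sided, gave p = 0.314. The difference was negative at both doses in each alternative and without any 1 of the 12 libraries, but at 20 mg/kg its size depended on single mice. It was -0.43 without 20CBD replicate 1, -0.10 without 20CBD replicate 3, -0.11 without 20CBD replicate 4 and -0.13 with only the libraries of at least 10% mitochondrial share. Exons of Napepld share 5% of their bases with Armc10 on the opposite strand.

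Dagla and Daglb encode the diacylglycerol lipases that form 2-arachidonoylglycerol, of which DAGLα is the main form in the brain. Dagla (ENSMUSG00000035735, chr19:10222629-10282320) ranged from 2.57 to 3.72 CPM in Control, from 2.12 to 3.23 CPM in 10CBD and from 2.22 to 4.31 CPM in 20CBD. Daglb (ENSMUSG00000039206, chr5:143450236-143496130) ranged from 8.21 to 9.45 CPM in Control, from 7.59 to 11.6 CPM in 10CBD and from 7.74 to 8.64 CPM in 20CBD. Groups overlapped for both genes. For Dagla the log2 fold change was -0.21 (95% interval -0.74 to 0.31) at the lower dose and -0.08 (-0.61 to 0.44) at the higher. At the lower dose it ranged from -0.31 to -0.099 without 1 library at a time. With only the libraries of at least 10% mitochondrial share it was -0.07 at that dose. For Daglb the log2 fold change was 0.20 (-0.11 to 0.51) and -0.08 (-0.39 to 0.24), and its intervals reached no farther than 0.51 from Control in either direction. Exons of Daglb share 16.1% of their bases with Rac1, an abundant gene on the opposite strand with 1001 to 2083 counts per library, and the strand setting of the counting is not given in the sources used here, so the values of Daglb are uncertain. The same holds to a lesser extent for Napepld with Armc10, for Mgll with Gm26588 (8% of exon bases) and for Gpr55 with 4933407L21Rik (1.8%).

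Of the breakdown enzymes, Faah encodes the hydrolase of anandamide and related amides (ENSMUSG00000034171, chr4:115824342-115875423). Its level was 59.4, 69.0, 56.4 and 60.5 CPM in Control replicates 1 to 4, 77.8, 51.3, 70.6 and 51.4 CPM in 10CBD, and 52.4, 51.2, 67.8 and 57.5 CPM in 20CBD. Each group held high and low libraries, and the 10CBD libraries lay on both sides of the whole Control range. Group means ± SD were 61.3 ± 5.42, 62.8 ± 13.5 and 57.2 ± 7.56 CPM (n = 4 each). The log2 fold change was 0.03 (95% interval -0.29 to 0.35) at 10 mg/kg and -0.10 (-0.42 to 0.22) at 20 mg/kg. Without 1 library at a time it ranged from -0.19 to -0.040 at 20 mg/kg.

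The high Faah libraries were the ones with few mitochondrial counts. Faah lay between 67.8 and 77.8 CPM in the 4 libraries with a mitochondrial share under 10% and between 51.2 and 60.5 CPM in the other 8, without overlap, as did 6.29% of all tested genes in this direction. With the low share as a factor, its log2 fold change at 10 mg/kg was -0.08. None of the other 6 tested genes divided in this way. Trpv2 spanned 1.91 to 7.44 CPM in the low libraries against 1.82 to 3.53 CPM in the other 8, and Mgll spanned 76.8 to 112.1 CPM against 66.5 to 103.6 CPM.

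**Figure D4:**
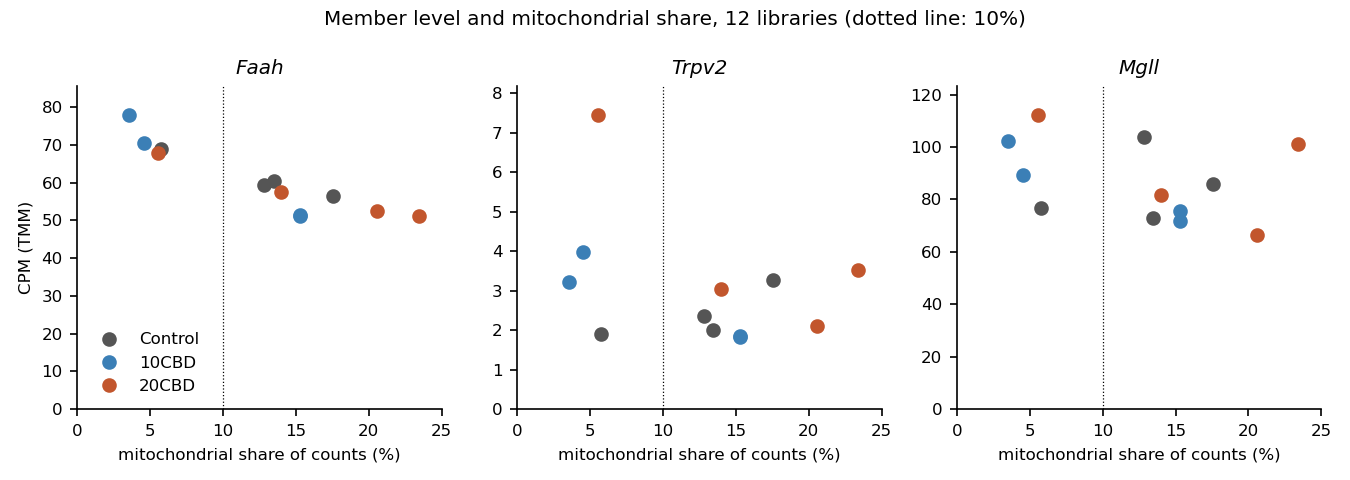
CPM of Faah, Trpv2 and Mgll (vertical axes, from 0) against the mitochondrial share of counts in % (horizontal axis), with 1 point per library coloured by group and a dotted line at 10%. The 4 libraries left of the line are the highest for Faah (67.8 to 77.8), whereas those of Trpv2 and Mgll overlap the other 8.

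Mgll encodes monoacylglycerol lipase, which ends the action of 2-arachidonoylglycerol and also completes fat breakdown in adipocytes (ENSMUSG00000033174, chr6:88652108-88805342). Its level was 103.6, 76.8, 85.8 and 72.8 CPM in Control replicates 1 to 4, 102.2, 71.9, 89.4 and 75.8 CPM in 10CBD, and 66.5, 101.3, 112.1 and 81.5 CPM in 20CBD. High and low libraries were found in each group and the groups overlapped throughout. Group means ± SD were 84.8 ± 13.7, 84.8 ± 13.8 and 90.3 ± 20.3 CPM (n = 4 each). The log2 fold change was 0.00 (95% interval -0.36 to 0.37) at 10 mg/kg and 0.09 (-0.27 to 0.46) at 20 mg/kg.

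For Faah and Mgll the 95% intervals at both doses reached no farther than 0.46 from Control on the log2 scale. The widest intervals were those of Cnr2 and Trpv2, whose counts were low or uneven. For Cnr2 at 10 mg/kg a fold of 0.406 to 1.02 of Control and for Trpv2 at 20 mg/kg a fold of 0.982 to 2.89 are inside the 95% intervals.

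Further genes of the pathway were read in 5 lists of other synthesis enzymes, other breakdown enzymes, lipid carriers, other receptors and other channels. Of 43 genes, 42 had at least 1 count, with the serotonin receptor Htr1a at 0 in every library, and 28 were tested. Of these 28, 0 were called by edgeR at either dose or in the other 2 comparisons. The unadjusted p of edgeR was under 0.05 for 2 of the 28 at 10 mg/kg, against 5.67% of all tested genes. At 20 mg/kg it was under 0.05 for 5 of the 28, against 8.45% of all tested genes. The median log2 fold change of each list lay between -0.10 and 0.15 at 10 mg/kg and between -0.05 and 0.10 at 20 mg/kg, beside 0.01 over all tested genes.

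The most expressed of the other synthesis genes had higher levels per length than Napepld. Abhd4 and Gde1, which act in succession on its precursor, stood at 7.75 and 5.67 CPM per kb, and the acyltransferase Plaat3 at 2.90. Plaat1, a related acyltransferase, had log2 fold changes of -0.74 and -0.88 at the lower and higher dose, with adjusted p-values of 0.870 and 0.503 by edgeR. Inpp5d, a phosphatase of blood cells, had 0.32 and 0.45, with 0.871 and 0.473. Of the 8 tested synthesis genes, 2 were higher and 6 lower than Control at 10 mg/kg, and 4 and 4 at 20 mg/kg.

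Among the other breakdown enzymes the cyclooxygenase Ptgs1 stood at 2.53 CPM per kb, and the monoacylglycerol hydrolases Abhd12 and Abhd6 at 2.27 and 2.05, each below Mgll and Faah. Ptgs1 had log2 fold changes of -0.02 and 0.23 at the lower and higher dose. Naaa, a lysosomal amidase that also cleaves N-acylethanolamines, had -0.27 and -0.03.

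Among the lipid carriers, Scp2, a peroxisomal and cytosolic sterol carrier, stood at 118 CPM per kb, followed by the fatty acid binding proteins Fabp4 at 22.0 and Fabp3 at 10.5. Fabp4, the form of adipocytes and capillary endothelium, measured 150.5, 177.4, 91.1 and 178.3 CPM in Control replicates 1 to 4, 106.0, 100.9, 67.4 and 81.2 CPM in 10CBD, and 67.5, 108.5, 92.0 and 88.6 CPM in 20CBD. Control replicate 3 lay among the treated libraries, and the other 3 Control libraries were above all 8 treated ones. Its log2 fold change was -0.75 at 10 mg/kg (95% interval -1.20 to -0.30) and -0.74 at 20 mg/kg (-1.19 to -0.30), with adjusted p-values of 0.775 and 0.312 by edgeR, so it was not called at either dose. Fabp3, the form of heart and muscle, had 0.09 and 0.48, with an adjusted p of 0.503 at 20 mg/kg.

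Adipocyte markers were read beside the carriers and Mgll, since kidneys are embedded in fat. All 5 were detected and 4 were tested, and their summed level was 83.6, 110.7, 29.2 and 111.6 CPM in Control, 53.8, 55.8, 17.4 and 22.7 CPM in 10CBD, and 13.3, 18.0, 10.1 and 28.9 CPM in 20CBD. All 4 libraries of 20CBD lay below all 4 of Control, while those of 10CBD overlapped Control. Car3, a carbonic anhydrase of fat and muscle, was the most abundant at 33.2 CPM and fell at 20 mg/kg (log2 fold change -1.97, adjusted p = 0.0516 by edgeR). The other tested markers were also lower at 20 mg/kg but were not called. Their log2 fold changes were -3.42 for Adipoq, -2.51 for Plin1 and -3.02 for Cidec (adjusted p = 0.347, 0.3825 and 0.253 by edgeR). Their lowest counts in a library were 0, 0 and 5. Fabp4 and the adipocyte sum were both low in Control replicate 3, where Mgll was at 85.8 CPM. In 20CBD the sum ranged from 10.1 to 28.9 CPM, against 17.4 to 55.8 CPM in 10CBD. Mean Fabp4 was 89.2 CPM in 20CBD and 88.9 CPM in 10CBD. The part of adipocyte RNA in the values of Fabp4 and Mgll was not tested.

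Of the other receptors, the nuclear receptor Ppara, which binds oleoylethanolamide, stood at 7.96 CPM per kb, and the adenosine receptors Adora1 and Adora2a at 1.02 and 0.514. Of the 3, Adora2a had the largest difference from Control, with a log2 fold change of 0.37 at both doses. Of the 6 tested genes of this list, 5 were higher than Control at 10 mg/kg and 4 at 20 mg/kg, and 0 were called. Vdac1, the mitochondrial outer membrane channel, led the other channels at 98.4 CPM per kb. Trpv4, an osmotically and mechanically gated channel of the renal tubule, stood at 10.4 CPM per kb, well above its relatives Trpv3 at 0.256 and Trpv2 at 0.667. Trpv4 had log2 fold changes of -0.14 and -0.33 at the lower and higher dose, with an adjusted p of 0.557 by edgeR at the higher dose.

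**Figure D5:**
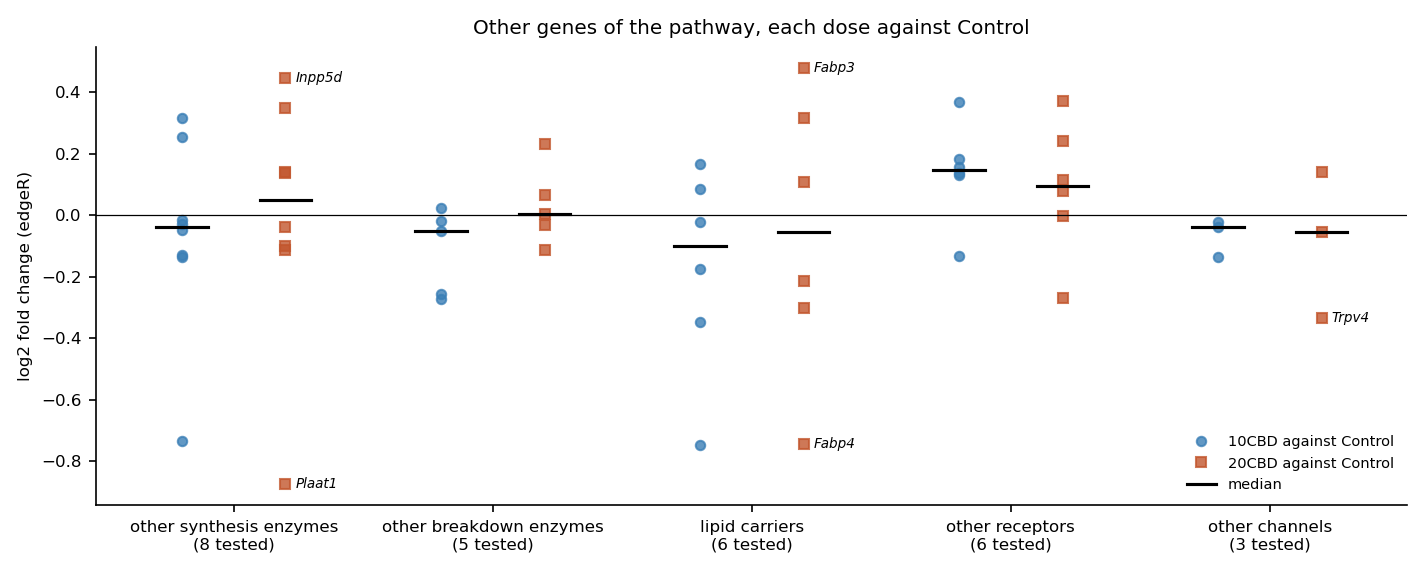
Log2 fold change (vertical axis) of each tested gene of the 5 further lists at 10 mg/kg (circles) and 20 mg/kg (squares), with the median of each list as a black bar. The medians lie between -0.10 and 0.15, and Plaat1 (-0.88) and Fabp4 (-0.74) are the lowest points at 20 mg/kg.

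Markers of the other cell types that a kidney sample can hold were also read. Smooth muscle had 3 of 3 markers tested, with a sum of 105.0, 110.3, 111.4 and 122.0 CPM in Control, 157.7, 116.0, 143.0 and 137.7 CPM in 10CBD, and 144.0, 150.9, 175.1 and 203.7 CPM in 20CBD. The 20CBD libraries lay above all Control libraries and 10CBD overlapped Control. The sum rests mostly on Myh11, smooth muscle myosin, the most abundant at 99.3 CPM, which rose at 20 mg/kg (log2 fold change 0.71, adjusted p = 0.0760 by edgeR). Endothelium had 4 of 4 markers tested, with a sum of 192.5 to 266.9 CPM per library and Pecam1, an adhesion molecule of endothelial junctions, the most abundant at 83.2 CPM. Adrenal cortex had 3 markers detected and 1 tested, with a sum of 3.61 to 5.49 CPM and Star, which carries cholesterol into mitochondria, the most abundant at 4.40 CPM. None of the tested epithelial, endothelial and adrenal markers was called at either dose. The part of these cell types in the values of the members was not tested.

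The genes whose log2 CPM followed each tested member most closely were found by Pearson r over the 12 libraries. They are the 3 with the highest r among all other tested genes, and picking the highest of so many yields high values by itself. The libraries differ in depth and mitochondrial share, and r is given as a description without a test. Faah had the closest partners, Dpp3 at 0.984, Acsf3 at 0.959 and Ergic3 at 0.957, in a set of libraries where Faah itself follows the mitochondrial share. Trpv2 was closest to Krtcap2 at 0.943, Gpx1 at 0.921 and Gm43323 at 0.920. Napepld was closest to Casd1 at 0.914, Mex3c at 0.904 and Eif4e at 0.880. For Daglb the closest were Eef2-ps2 at 0.903, Gm6560 at 0.901 and Tbrg1 at 0.898, and for Mgll they were Psmb8 at 0.886, Rpl13 at 0.885 and Ppfia4 at 0.882. The lowest r values were those of Cnr2 and Dagla, with Gm43860 at 0.860, Gm34121 at 0.838 and Lctl at 0.837 for Cnr2, and Zkscan4 at 0.833, Tpte at 0.827 and Gm44037 at 0.813 for Dagla.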

How the data were processed

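Kidney RNA-Seq counts of 12 mice were used, all 12 libraries, 1 per mouse. The authors trimmed the reads, aligned them to GRCm39 with STAR 2.7.5c and counted them per Ensembl gene with HTSeq 1.99.2, after quality control with FastQC 0.11.9, as named in the submitters' processing notes, and the deposited values are whole counts, not normalized. The summary lines of the counting tool, which name no gene, made up 56.6% of all reads listed (unaligned ones included) and were left out. The annotation release, the strand setting and the use of molecular identifiers are not given in the sources used here. Gene identifiers were matched to GENCODE vM39 for symbols, positions and exon lengths (99.02% matched).

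Total counts ranged from 15417867 to 23532088 per library. In R 4.3.3, edgeR 4.0.16 was run on all 3 groups with filterByExpr, TMM normalization and the quasi-likelihood test, with Benjamini-Hochberg adjustment over 17163 genes and calls at an adjusted p under 0.1, the threshold the study used. Levels are TMM-normalized CPM. Exact permutation tests, 1 gene at a time, compared group means of log2 CPM (prior count 2). Scripts were tested on simulated data. Alternatives were RLE normalization, DESeq2 1.42.0, no filter, at least 10 counts in every library, a fit of only the groups compared, a replicate block, mitochondrial genes removed, a low mitochondrial share as a factor, only libraries of at least 10%, an adjusted p under 0.05, and each library left out. The 10 genes and the lists were chosen with earlier results of these data known.

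Named besides the 10 genes were, of each pathway list, the 3 genes of highest CPM per kb, any called gene and the tested gene of smallest p at each dose. Of each marker list the most abundant gene and any gene without counts were named, and for each tested member the 3 genes of highest Pearson r. Htr1a, Cd79a, Cd68, Cd3e, Adipoq, Plin1, Cidec and the genes that overlap members were named after their values were seen. The sensory nerve markers are not reported here.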

Additional observations from a re-analysis of the deposited data

Results flagged for a closer look

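Cnr2 in Control replicate 4 (1.79 CPM) stood apart from the other 3 Control libraries, which lay between 0.906 and 1.06 CPM. It raises the Control mean with which both doses were compared, and without it the log2 fold change of Cnr2 was -0.37 at 10 mg/kg and 0.15 at 20 mg/kg. Trpv1 in Control replicate 4 (0.109 CPM, from 2 counts) was flagged as well, because the other 3 Control libraries were at 0. A count of 0 allows up to 0.126 to 0.151 CPM in those libraries, so the Trpv1 value is not separated from them. In all, 53 groups of 4 libraries were examined in this way and 2 had such a value, where chance alone marks about 1 in 20.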

How the results depend on the processing

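The members called were 0 in each of the 87 other values of this count, over the 4 comparisons and the alternatives, and the smallest adjusted p of the 7 tested members at either dose against Control under any alternative was 0.339. The 14 log2 fold changes of members from Control kept their sign in 116 of 126 values under the other alternatives and in 151 of 168 without 1 library. For members whose sign reversed, the cause was not tested. With a low mitochondrial share as a factor, the log2 fold change at 10 mg/kg was -0.10 for Trpv2, -0.082 for Faah and -0.076 for Mgll. With only the libraries of at least 10% mitochondrial share it was -0.48 for Trpv2, -0.0086 for Daglb, -0.20 for Faah and -0.25 for Mgll at 10 mg/kg, and 0.12 for Dagla and -0.073 for Mgll at 20 mg/kg. Without a filter on low counts it was -0.027 for Mgll at 10 mg/kg. Without 1 library at a time it ranged at 10 mg/kg from -0.039 to 0.39 for Trpv2, from -0.088 to 0.12 for Faah and from -0.10 to 0.12 for Mgll. For 20CBD it ranged from -0.22 to 0.15 for Cnr2, from -0.30 to 0.040 for Dagla and from -0.030 to 0.21 for Mgll. The 3 members below the filter also had fewer than 1 count in some library, and no member fell below 10 counts in a library besides these 3.

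Counts of all genes called moved more, and the cause was not tested. At 10 mg/kg (5 genes) the count was 3 at an adjusted p under 0.05, 40 with DESeq2, 331 without a filter, 12 with a low mitochondrial share as a factor and 26 with only the libraries of at least 10%. For 20CBD (52 genes) these counts were 23, 182, 416, 293 and 107. Between the doses (0 genes) it was 12 with DESeq2 and 256 without a filter. For both doses (24 genes) it was 13, 136, 393, 125 and 67.

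Without 1 library the count ranged from 2 to 8 at 10 mg/kg, from 14 to 54 at 20 mg/kg and from 8 to 35 for both doses. At 10 mg/kg it was 2 without Control replicate 1 or 10CBD replicate 3, 3 without Control replicates 3 or 4 or 10CBD replicates 1 or 4, and 8 without 10CBD replicate 2. For 20CBD it was 14 without Control replicate 1, 2 or 4, 32 without Control replicate 3, and 19, 29 and 25 without 20CBD replicates 2, 3 and 4. For both doses it was 8, 13 and 9 without Control replicates 1, 2 and 4, 9 without 10CBD replicate 3 and 11 without 20CBD replicate 4.

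The labels give the groups the same replicate numbers but no pairing. Libraries of the same number correlated between -0.33 and 0.317 in their deviations from the group means, and 2 of 12 pairs matched best by number. With the replicate number as a block, 27 genes were called at 20 mg/kg, 4 at 10 mg/kg, 17 for both doses and 0 between the doses, and 0 members in each.

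Depth limits Cnr1, Gpr55 and Trpv1, which had at most 13 counts in a library. Per kb of the longest transcript the levels of Dagla, Daglb, Faah and Mgll moved by more than the spread between mice, and with mitochondrial genes removed those of Daglb (0.612 CPM per kb) and Faah (6.28) did.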
